A study of Sus scrofa with 36 samples.

Results

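Of 36 cerebellum RNA-seq libraries from formula-fed piglets, 3 were chosen by a single value of their count files: the share of read pairs that was counted on no gene exceeded 31%. They came from piglet 202 (female, vegetable oil diet, normal birth weight; VEG-NBW), piglet 210 (female, vegetable oil diet, intrauterine growth restricted; VEG-IUGR) and piglet 213 (male, bovine milk fat diet, normal birth weight; MILK-NBW). Each was set beside the 8 other libraries of its own diet and weight group. The fourth group, growth-restricted piglets on milk fat (MILK-IUGR), had 9 libraries and none above the threshold. All piglets were Danish landrace × Yorkshire × Duroc crosses, 18 females and 18 males. They received their formula from 3 days of age, which was study day 1, and tissue was taken on study day 21 or 22. Each library held the total RNA of 1 piglet. The study's methods left out 3 samples of low RNA integrity, 1 each from VEG-IUGR, VEG-NBW and MILK-NBW. Neither the methods nor the labels name those piglets, and whether they are the 3 libraries described here was not tested.

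The cerebellum is dominated by small, densely packed granule neurons. Purkinje neurons carry the output of its cortex, Bergmann glia and astrocytes surround both, and oligodendrocytes make the myelin. A messenger RNA pool from such tissue mixes several transcript classes: the few abundant messengers made inside mitochondria, short messengers for ribosomal and respiratory chain proteins, long neuronal messengers for synaptic and adhesion proteins, and small nucleolar RNAs (snoRNAs) that are released from introns. The comparisons below ask which of these classes were kept, lost or gained in each library and what the 3 libraries had in common.

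The counting program closes each file with 5 lines for pairs that fell in no annotated gene, in several genes at once, had low alignment quality, did not align, or aligned to several places. Together these lines held 43.6% of the pairs of piglet 202, 64.3% of piglet 210 and 31.5% of piglet 213. The other 33 libraries ranged from 26.7% to 30.5%, and the nearest below the threshold was piglet 215 of VEG-NBW at 30.5%. The 95% Wilson intervals of these shares, which cover counting error only, were at most 0.0398 percentage points wide. These shares chose the libraries and are given as a description.

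The lines behind the 3 totals were not the same. In piglet 202 the excess lay mostly in pairs outside annotated genes, which were 22.3% of all pairs against 8.70% to 12.5% in the other VEG-NBW libraries. In piglet 210 all lines but that for several genes at once were raised. Pairs that did not align made up 24.6% (other VEG-IUGR libraries 3.19% to 3.57%), pairs of low alignment quality 10.2% (3.49% to 4.37%), pairs with several places 9.70% (4.55% to 5.47%) and pairs outside genes 14.3% (8.41% to 11.3%). Piglet 213 was above its group for pairs outside genes, 12.1% against 7.67% to 10.5%, and for pairs in several genes, 7.24% against 6.11% to 6.69%. It was below its group for pairs with several places, 4.13% against 4.67% to 4.86%. Relative to pairs with a single place in the genome, the share outside genes was nearly the same in piglets 202 and 210, 26.2% and 25.8%, and lower in piglet 213, 13.8%, where the 33 ranged from 8.75% to 14.2%.

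**Figure D1:**
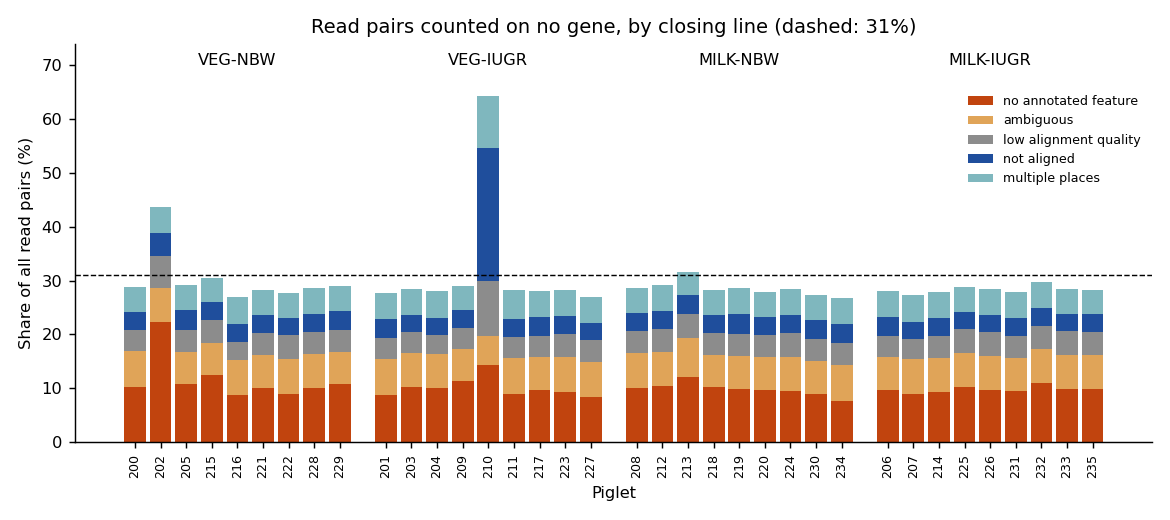
Stacked bars give, for each of the 36 piglets in the 4 groups, the percent of all read pairs in each of the 5 closing lines, and the dashed line marks 31%. Piglets 202, 210 and 213 reach 43.6%, 64.3% and 31.5%, and the bar of piglet 210 is the one with a large block of pairs that did not align.

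The pairs counted on genes fell to 7936202 in piglet 210 and to 14161702 in piglet 202, below all of the 33 others (15516541 to 23027502), while piglet 213 had 16934242, inside that range. Spearman's rho of gene counts with the group median was 0.916 in piglet 202, 0.476 in piglet 210 and 0.949 in piglet 213, against 0.982 to 0.995 in the 33. Genes were called lower or higher in a library where they lay outside the range of the group's other 8 libraries and at least 2-fold from their median. This scale was log2 CPM (read pairs on a gene per 1000000 pairs on all genes) with a prior count of 2 and scaling by trimmed means (TMM), and it is the scale of every log2 ratio below. Lower calls were made over the 14032 genes with a mean of at least 1 CPM in the 33. Higher calls also took in genes that reached 1 CPM in the library itself. The same rule called 35 to 346 genes lower and 49 to 384 higher in each of the 33 other libraries. It has no test, since each library stands alone against its group.

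Piglet 210 had no pair on most genes. It had 6513 genes with at least 1 count, where the 8 other VEG-IUGR libraries had 19051 to 19484, and thinning those to its own depth left 17728 to 18173. Of the 14032 genes, 8159 were at 0 in it, against 0 to 13 in each of the 33. By the 2-fold rule 10299 genes (73.4% of 14032) were lower and 2009 (14% of 14319) were higher. The library therefore left few genes near their usual level in either direction. With most genes at 0, a median ratio over genes would depend on the prior count and is not given.

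The genes that remained clustered at one count. Between 181 and 200 counts piglet 210 had 339 genes (243 to 296 in the other 8), and between 201 and 220 it had 335 (214 to 268). Between 1 and 20 counts it had 703 genes, where the others had 5230 to 5512, and between 281 and 300 counts 105, where they had 194 to 225. Its counts per gene thus had a peak near 200 where those of its group fell smoothly. Ranked by mean level in the 33 and cut into 10 equal bins, the lowest bin held 1404 genes (1.001 to 2.64 CPM). Of these, 165 were detected in piglet 210, and their median count was 139. The group's other libraries detected 1400 to 1404 of the same genes with medians of 26 to 34, so the few low genes that were present had more counts than in a whole library. In the highest bin, 1164 of 1404 were detected, with a median of 810.5 counts against 3761.5 to 4975.5. The share of genes at 0 fell from 88.2% in the lowest bin to 17.1% in the highest.

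**Figure D2:**
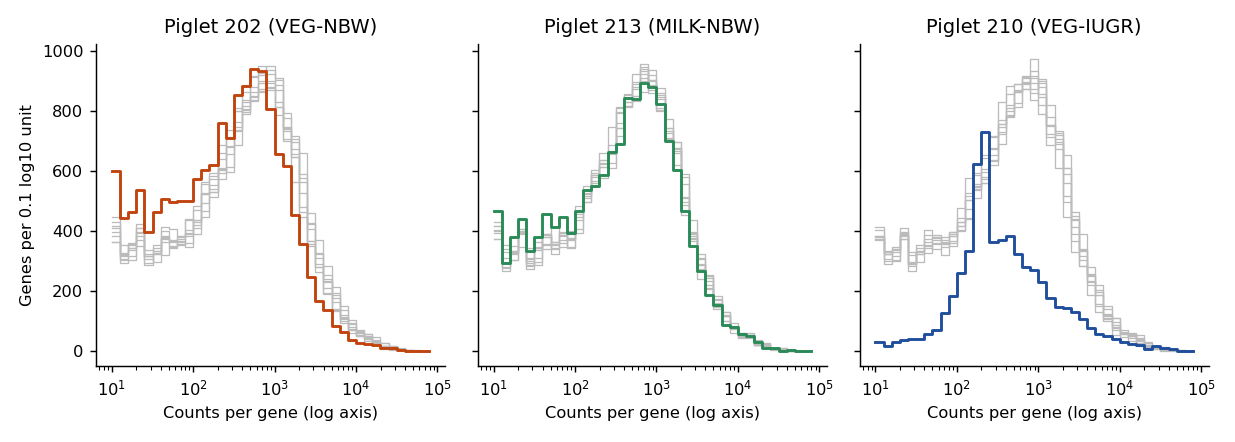
Lines give the number of genes per 0.1 log10 unit of counts per gene (log axis, from 10 counts) in piglet 202, piglet 213 and piglet 210, each in colour over the 8 other libraries of its group in grey. Piglet 210 shows a narrow peak near 200 counts that none of the grey lines has, while piglets 202 and 213 follow the shape of their groups with a shift to lower counts.

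Several genes of that peak are hardly detected in cerebellum otherwise. TFF3, a secreted trefoil peptide of mucous epithelia, had 274 counts (34.5 CPM) in piglet 210 and at most 0.177 CPM in the other 8 libraries. TNFRSF18, a receptor of T cells, had 261 counts (at most 0.430 CPM in the others), and SOST, the Wnt inhibitor sclerostin of bone, had 172 (at most 0.149 CPM). LRRC19 had 233 counts, PAGE4 194, CLRN2 186 and TECRL 175, and none of them passed 0.110 CPM in the other 8. These 7 were the genes other than snoRNAs with the highest ratios among genes with a symbol, and their counts all lay between 172 and 274. SNORD17, a snoRNA, had 217 counts in piglet 210 and at most 0.107 CPM in the others. With SNORA80B it was 1 of only 2 snoRNA and scaRNA genes detected there of 70, so the class's raised share, 0.00580% of pairs on genes against 0.00120% to 0.00188%, rests on them.

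At the other end, some genes that were abundant in the other libraries had no pair at all in piglet 210. ZIC1, a granule neuron transcription factor (chr13:87740769-87750258, Sscrofa11.1), had 0 counts and 624 to 895 CPM in the other VEG-IUGR libraries. NEUROD1, a transcription factor of the same neurons, had 0 against 596 to 921 CPM, and SPARCL1, an extracellular protein of astrocytes, 0 against 665 to 926 CPM. Against a floor of 3 counts (0.378 CPM) these are at least 2062-fold, 2016-fold and 2231-fold lower than the group medians. The Na,K-ATPase subunit gene ATP1B1 (at least 1794-fold lower), CTNNB1 for beta-catenin (1745-fold), HNRNPK and DDR1 were also at 0. For a gene at 0 the bound is set by its level in the group alone, so ranking by it returns the most abundant genes at 0, and the highest bin of level was the one least often at 0.

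The counts were concentrated on fewer genes. The number of genes that held 50% of the pairs was 224 (961 to 1077 in the others), and the leading 100 genes held 36.4% (18.4% to 21.3%). The leading 10 held 11.2%, closer to the 7.34% to 10.03% of the others. APOE, the lipid carrier of astrocytes (chr6:51373113-51375333), stood at 40200 CPM against 3294, 4127 and 4950 (lowest, median, highest of the others), 9.74-fold the median. CD74, the invariant chain of MHC class II (chr2:151402210-151409924), stood at 14538 CPM against 379, 481 and 614, a 30.2-fold excess. GFAP, the astrocyte filament, was 3.10-fold, the ribosomal protein gene RPLP2 18.9-fold and SEC62, of the protein translocation channel, 27.3-fold their medians. In counts, not divided by length, these 5 were the leading genes of the library, and all 5 were above every other VEG-IUGR library.

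Markers of one cell type lay far apart in piglet 210. Over all 14032 genes 58.1% were at 0, 73.4% lower and 12.3% higher there, and the counts of list members stand beside these shares. Of 10 granule neuron markers 6 were at 0, 9 were lower and none was higher, but CBLN1, a granule cell synapse organizer, was kept at 1034 CPM (959 to 1448 in the others). Of 8 tested Purkinje markers 4 were lower and 3 higher. PCP2 was at 4944 CPM (339 to 658), while ITPR1, the calcium release channel of the same cells (chr13:61068131-61398918), was at 18.0 CPM (1015 to 1418) and HOMER3 at 0. The summed level of that list was 9131 CPM against 3057 to 4733, set by PCP2. Of 9 microglia markers 3 were higher and 4 were at 0, and even the 3 chains of complement C1q parted: C1QB was at 60.6 CPM (20.9 to 39.7), C1QC at 36.04 (16.9 to 35.0) and C1QA at 0 (13.5 to 23.6). Of 7 mural cell markers 6 were at 0 and 1 was higher. In bulk tissue, fewer cells of a type and less RNA per cell cannot be told apart. With members of several lists on opposite sides of their group, neither is read from these markers, and no cause was tested.

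Blood, liver and stress genes were split as well. HBB, beta globin, was at 152 CPM (1.70 to 36.6 in the others), while the red cell genes ALAS2 and AHSP were at 0. APOA1 was at 1881 CPM (115 to 172), while ALB, FGB and SERPINA1, the other tested genes of the liver list, were at 0. Of 10 tested immediate early genes 9 were at 0 (58.1% of all genes) and IER2 was at 79.1 CPM (56.3 to 81.8). Of 8 tested hypoxia genes 6 were at 0 and PDK1 was 3.23-fold the group median. Both tested forebrain neuron genes were at 0.

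Piglet 202 had no such gaps. It detected 20793 genes, above the 18979 to 19541 of the other VEG-NBW libraries, and 19890 against 17822 to 18287 after thinning to 7936202 pairs. The surplus was largely genes without a symbol, of which it detected 7223 (5401 to 5963 in the others), and those genes held 11.95% of its pairs on genes (9.29% to 9.90%). It had counts on 194 genes that were at 0 in all of the 33, of which 179 had at most 3 counts, where each of the 33 had 25 to 71 genes seen in none of the others. By the 2-fold rule 2335 genes (16.6% of 14032) were lower and 2109 (13.9% of 15142) higher, 47.5% of the calls being higher. Scaling by DESeq2's size factors gave 1842 lower and 2520 higher, 57.8% higher, and moved the median log2 ratio of all genes from -0.15 to -0.01, so the balance of gain and loss depends on the scaling.

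Of the gene classes measured, mitochondrial messengers gained most in percentage points in piglet 202, while the snoRNA and scaRNA class had the larger ratio to the group median (2.90 against 2.39). The mitochondrial genome encodes 13 proteins of the respiratory chain, and ATP8 was at 0 in every library. The other 12 held 15.6% of the pairs on genes in piglet 202, where the other VEG-NBW libraries had 5.74%, 6.54% and 7.11% (lowest, median, highest) and the 33 at most 10.3%. COX1, a cytochrome oxidase core subunit, was at 49199 CPM against 14530, 17482 and 20783. ND3, of complex I, was at 5707 CPM against 1198, 1391 and 1767, the largest ratio of the 12 (log2 2.07), and ND1 changed least, 2011 CPM against 1274 to 1591 (log2 0.41). All 12 lay above every other library of the group in CPM, and 7 passed the 2-fold rule.

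The class parted between the 3 libraries. It held 0.841% of the pairs of piglet 210 (5.36% to 8.29% in the others of its group) and 8.65% of piglet 213 (5.22% to 6.39%). In piglet 210, 11 of 12 genes were lower, from ND4L (log2 -1.30) to ND4, at 63.9 CPM against a median of 5053 (log2 -6.42). The exception was ND6, the protein gene on the opposite mitochondrial strand, at 1017 CPM against 613, 729 and 974. In piglet 213 all 12 log2 ratios were above 0, from 0.03 for ND4L to 0.74 for ND6 and COX3, and none passed the 2-fold rule. Whether the library was strand-specific is not given in the sources used here, so ND6 and antisense RNA of its neighbours cannot be told apart.

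Ribosomal protein messengers, in contrast, were raised in all 3. The 46 cytosolic ribosomal protein genes held 4.44% in piglet 202 (1.87% to 2.54% in its group), 7.98% in piglet 210 (1.87% to 2.66%) and 2.99% in piglet 213 (2.01% to 2.32%), and at most 2.77% in the 33. In piglet 202, 22 of 45 tested genes were higher and none lower, with a median log2 ratio of 0.98 beside -0.15 over all genes. In piglet 213, 4 were higher and none lower (median 0.53 beside -0.03). In piglet 210, 22 were higher, 5 were lower and 3 of those, RPS13, FAU and RPL23A, were at 0. Ribosomal protein genes have many near-identical processed copies. Pairs that match several places went to a closing line, so their counts are uncertain.

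Other classes followed only in part. The 64 mitochondrial ribosomal protein genes, which are encoded in the nucleus, held 0.933% in piglet 210 (0.207% to 0.252%) and 0.288% in piglet 213 (0.226% to 0.252%), but 0.227% in piglet 202, inside the range of its group. In piglet 210, 19 of the 60 tested were higher and 25 lower. Nuclear respiratory chain genes held 1.73% in piglet 210 (0.752% to 1.003%) and 1.11% in piglet 213 (0.849% to 1.02%), and 0.958% in piglet 202, within its group. As a share of all pairs of the file, not of pairs on genes, the ratio of this class to the group median dropped from 1.96 to 0.972 in piglet 210 and from 1.10 to 0.860 in piglet 202. Histone genes held 0.0300% in piglet 210 and 0.0907% in piglet 202, both below their groups, and 0.113% in piglet 213, within it. The snoRNA and scaRNA share was above its group in piglets 202 (0.00469%, others 0.00119% to 0.00204%) and 213 (0.00324%, others 0.000951% to 0.00159%).

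**Figure D3:**
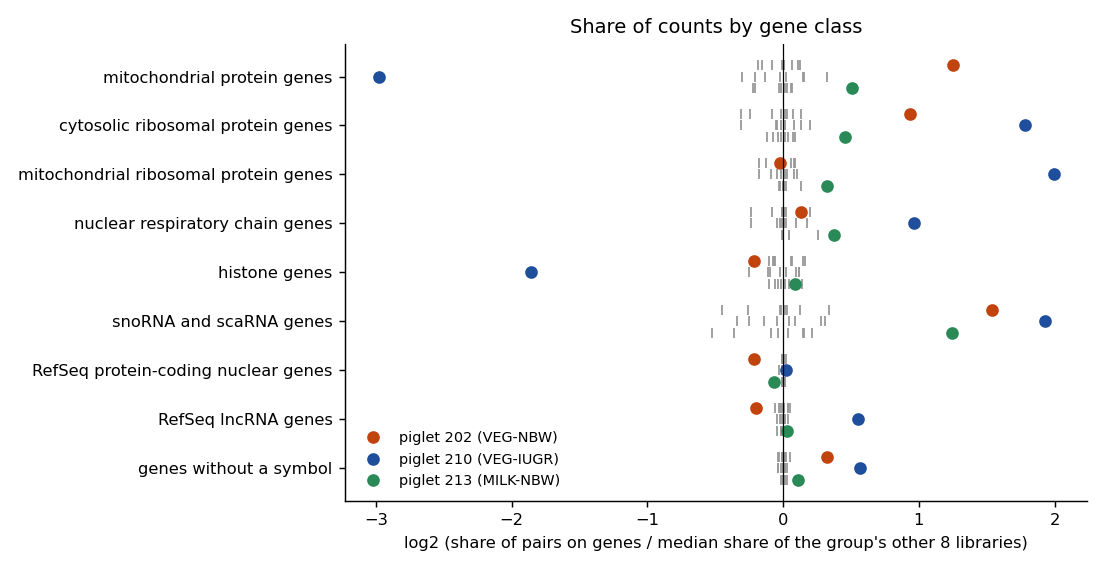
Points give the log2 ratio of each class's share of pairs on genes in piglets 202, 210 and 213 to the median share of the group's other 8 libraries, which are shown as grey ticks around 0. Cytosolic ribosomal protein genes lie above the ticks in all 3, and mitochondrial protein genes lie far below them in piglet 210 (0.841% of pairs) and above them in piglets 202 (15.6%) and 213 (8.65%).

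Outside these classes, the named losses of piglet 202 had various roles. CNP, a myelin enzyme, was at 34.7 CPM against 262, 395 and 689 (lowest, median, highest of the other VEG-NBW libraries). MBP, also of myelin, was within its group at 7266 CPM (4465 to 16042). All 8 tested oligodendrocyte markers had log2 ratios below 0, from -3.47 to -0.17 (median -0.71 beside -0.15 over all genes). Of these, 3 were lower by the 2-fold rule, and the summed markers lay within the group at 10661 CPM (9125 to 31507). COL1A1, a collagen chain of meningeal fibroblasts, was at 29.8 CPM (204 to 353), and the cytoskeletal gene ACTB at 251 (842 to 1082). The transcription factor genes JUNB, 1.48 CPM against 12.9 to 25.4, and ZIC1, 154 against 617 to 995, were lower, as was the adhesion gene TENM2, 2.19 against 21.7 to 49.9. The neuropeptide gene SST was at 0 (0.212 to 5.62 in the others).

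By cell type, where 16.6% of all genes were lower and 8.15% higher, piglet 202 was lower for 6 of 9 microglia, 5 of 7 endothelial and 5 of 7 mural cell markers, 3 of 10 granule neuron, 3 of 8 Purkinje, 3 of 7 astrocyte and 3 of 8 oligodendrocyte markers. Of these 7 lists, a single granule marker was higher. The summed microglia markers were at 101 CPM against 133 to 293 and the summed endothelial markers at 154 against 217 to 273. No granule, Purkinje, glial or vascular marker tested was at 0 in piglet 202 or 213. Of 10 tested reference genes of the kind used for normalization 4 were lower and none higher.

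The gains of piglet 202 with the highest ratios were low in its group. KLHL10, a spermatid ubiquitin ligase adaptor, was at 32.9 CPM against 2.14, 3.25 and 6.54. VIL1, an actin bundler of intestinal microvilli, was at 6.21 CPM (0.239 to 0.776), and CFAP161, a ciliary protein gene, at 10.8 (0.371 to 4.41). MROH7 was at 22.2 CPM (0.491 to 3.49) and WDR88 at 4.17 (at most 0.635). Among gene families that share a symbol stem, 8 of 32 CEP genes, for centrosomal proteins, were higher and 1 was lower. Of 52 RAB genes, for small GTPases of vesicle traffic, 22 were lower and 3 higher. Both families were picked after their values were seen. Of the 14032 genes 84.96% carried a symbol, as did 86.6% of the 2335 lower and 65.9% of the 1143 higher genes, a difference that was not tested.

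Piglet 213 stood nearest to its group. It detected 19532 genes, within the 18635 to 19544 of the other MILK-NBW libraries. By the 2-fold rule 1381 genes (9.84% of 14032) were lower and 784 (5.4% of 14526) higher, more than in any of the 33. DCX, the microtubule protein of young neurons (chrX:91317671-91644572), was at 2.13 CPM against 50.3, 63.1 and 79.6. IGSF9B, a synaptic adhesion gene, was at 3.84 CPM (59.3 to 86.9), and the potassium channel gene KCNA2 at 2.13 (34.2 to 55.0). SLC1A2, the glutamate transporter of astrocytes, was at 10.2 CPM (109 to 154). Each of these 4 was more than 10-fold below its group median. No Purkinje, oligodendrocyte, microglia or mural cell marker was called in piglet 213. Lower were 3 of 10 granule neuron, 3 of 7 astrocyte, 2 of 6 meningeal fibroblast and 1 of 7 endothelial markers. The same held for 6 of 19 long neuronal genes, where 9.84% of all genes were lower. The summed astrocyte markers were at 6832 CPM against 7070 to 9039. ANGPTL7 and TRIM15 were at 0, from group medians of 1.69 and 2.10 CPM. TRIM15 ranged from 0.0506 to 5.41 CPM in the group's other libraries, so its 0 lies close to their lowest value.

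Several gains of piglet 213 were found in piglet 202 too. SLC10A1, a bile acid transporter of the liver, was at 57.04 CPM against 7.83, 10.03 and 14.7. PON1, an esterase carried on HDL, was at 26.0 CPM (4.03 to 5.50), MSS51 at 32.4 (4.03 to 6.68) and the snoRNA SNORD99 at 7.85 (0.661 to 1.72). VIL1 was at 2.78 CPM (0.117 to 0.508). SLC10A1, PON1, MSS51, SNORD99 and VIL1 were all higher in piglet 202 as well.

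Piglets 202 and 213 changed in the same genes to a large degree, although they differed in diet and sex. Of the lower genes 691 were shared, 29.6% of those of piglet 202 and 50.04% of those of piglet 213, where 16.6% and 9.84% of all genes were lower. Of the higher genes among the 14032, 321 were shared, 28.1% and 64.3%, where 8.15% and 3.56% of the 14032 were higher. Over the 14032 genes the log2 ratios of the 2 libraries correlated with Pearson's r 0.55 and Spearman's rho 0.58. The libraries share sequencing, depth range and gene composition, and genes are not independent. Against each of the 25 libraries of other groups below the threshold, r lay between -0.24 and 0.20 for piglet 202 and between -0.19 and 0.22 for piglet 213. Shared losses included SV2C, a synaptic vesicle protein gene (chr2:84996697-85235827), at 0.141 and 0.0591 CPM against group medians of 4.46 and 4.75. SLC24A2, a calcium exchanger gene, was at 6.57 and 5.43 CPM against 56.0 and 71.0, the kinase gene PRKCA at 4.17 and 3.31 against 34.5 and 40.4, and the glutamate receptor gene GRM5 at 5.23 and 5.197 against 37.7 and 40.1. OIP5, of centromere assembly, was the gain with the most counts: 571 and 292 CPM against 70.7 and 62.1, and 58.7 in piglet 210, within its group.

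**Figure D4:**
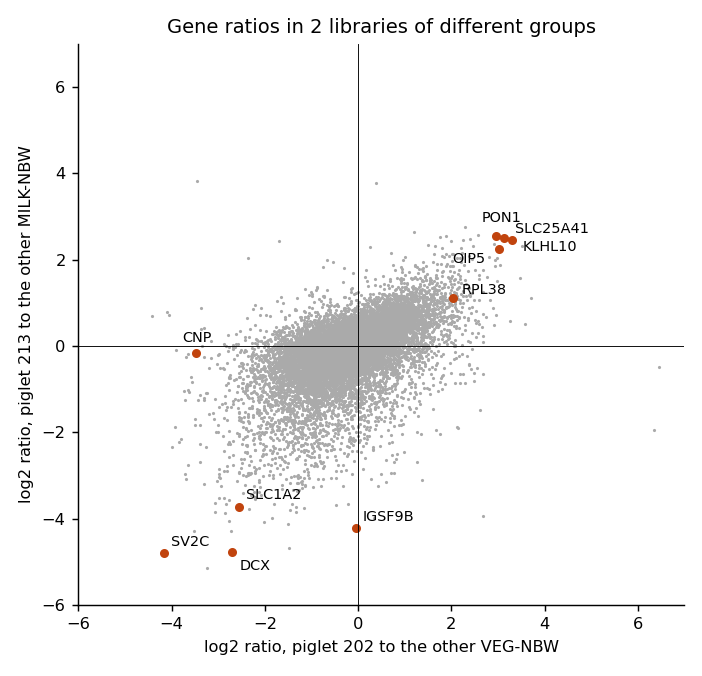
Each point is 1 of 14032 genes, with its log2 ratio to the group median in piglet 202 on the horizontal axis and in piglet 213 on the vertical axis. The cloud runs along the diagonal (Pearson's r 0.55), with OIP5, KLHL10 and PON1 high in both and SV2C, DCX and SLC1A2 low in both.

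Piglet 210 shared some losses and gains with both, in part near the share of all genes. Of the lower genes of piglet 213, 90.9% were lower in piglet 210, and of those of piglet 202, 79.7%, where 73.4% of all genes were lower. Of the 1143 higher genes of piglet 202, 236 (20.6%) were higher in piglet 210 and 762 were lower there. Of the 499 higher genes of piglet 213, 139 (27.9%) were higher in piglet 210 and 313 were lower there. Over all genes 12.3% were higher in piglet 210. The log2 ratios of piglet 210 correlated with r 0.117 with piglet 202 and 0.204 with piglet 213. With the 25 libraries of other groups below the threshold its r ran from -0.146 to 0.119. The r with piglet 202 lay inside that range and the r with piglet 213 above it. PON1 and KLHL10, both gains of piglets 202 and 213, were at 0 in piglet 210. Of the 691 genes lower in both piglets 202 and 213, 648 were lower in piglet 210 too. Of the 321 higher in both, 84 were higher in piglet 210 too. Over all 14032 genes 73.4% were lower and 12.3% higher in piglet 210.

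Gene span, the distance from a gene's first to last base in RefSeq, went with the losses in piglets 210 and 213. In piglet 202 losses were most frequent among the longest genes but did not rise steadily with span. It was known for 11149 protein-coding genes, 79.5% of the 14032. In piglet 210 with genes cut into 10 equal bins by span, the percent at 0 went from 44.1 in the bin of shortest spans to 69.5 in that of the longest, and the shortest bin held 33.9% of its protein-coding counts where the group's others held a median of 11.3%. In piglet 213, 4.84% of the shortest bin and 21.4% of the longest bin were lower. In piglet 202 the medians of both ends were low: the median log2 ratio was -0.29 in the shortest bin, -0.07 in the fourth and -0.47 in the longest. The percent lower in these bins was 20.1, 13.5 and 25.2, and the percent higher was 9.24, 8.07 and 1.88. The shortest bin held 13.7% of its protein-coding counts, where the group's others held a median of 11.2%. Spearman's rho between ratio and span was -0.06, -0.27 and -0.24 in piglets 202, 210 and 213, inside the -0.30 to 0.30 of the 33, while the gap between the shortest and longest bins, 0.52 log2 units in piglet 213, exceeded the -0.28 to 0.22 of the 33. The median span of genes lower in both piglets 202 and 213 was 63370 bases, beside 32575 over all genes. Of the 11149 genes with a span, 1323 were higher in piglet 210. By chromosome, the percent of these genes that were higher ranged from 20.1 on chromosome 2 and 18.8 on chromosome 12 to 6.48 on chromosome 1 and 6.27 on chromosome 8. These are the extremes of all chromosomes, picked after their values were seen, and the spread was not tested. Transcript length was not analysed here.

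**Figure D5:**
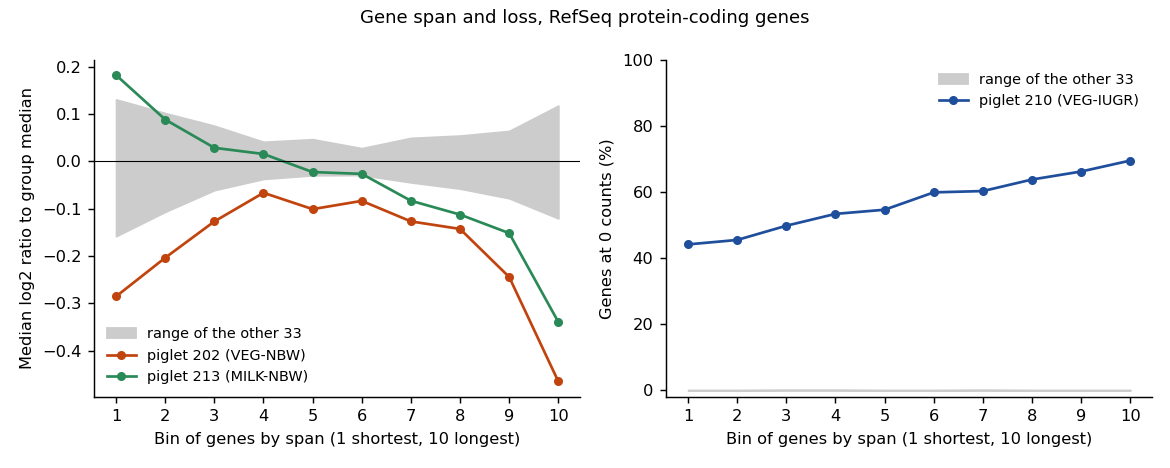
RefSeq protein-coding genes are cut into 10 equal bins by span. The left panel gives the median log2 ratio to the group median in piglets 202 and 213, with the range of the other 33 libraries in grey, and the right panel the percent of genes at 0 counts in piglet 210. Piglet 213 falls from 0.18 to -0.34, piglet 202 is lowest at both ends (-0.29 and -0.47), and piglet 210 rises from 44.1% to 69.5% where the 33 stay at or under 0.0897%.

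A single fit put the 3 libraries together against the 33 and asked which genes differed on average between them beyond the spread of all libraries. It was edgeR's quasi-likelihood test with diet and weight group and sex as terms and Benjamini-Hochberg adjustment, and its p-values compare 3 single piglets of different groups with the others, not a condition. Of 16086 genes, 2421 (15.1%) were higher and 4080 (25.4%) lower at an adjusted p under 0.05. Of the lower genes 92.7% were below the group median in all 3 libraries, and of the higher genes 47.2% were above it in all 3. Over all 16086 genes these shares were 33.004% and 7.32%, and piglet 210 alone had 82.3% of them below and 17.6% above. Of the lower and higher genes, 64.9% and 29.5% lay outside the group's range on that side in all 3. At 0 in piglet 210 were 2650 of the 4080 lower and 295 of the 2421 higher genes. The genes were called from these same 3 libraries, so their agreement in side is a description and no further result. Leaving out piglet 210 gave 4038 higher and 4148 lower genes, of which 4789 were among the 6501 called with all 3.

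The counts of list members in this fit stand beside 15.1% higher and 25.4% lower over all genes. By this fit, 39 of 46 cytosolic ribosomal protein genes were higher and 1 lower (median log2 difference 1.11 beside -0.39 over all genes). Of 60 nuclear respiratory chain genes 33 were higher and 7 lower (median 0.42), of 60 mitochondrial ribosomal protein genes 25 and 4 (0.16), and of 16 snoRNA and scaRNA genes 6 and 0 (0.82). Piglet 210 detected only SNORD17 and SNORA80B of the 70 snoRNA and scaRNA genes, so most of these 16 had no pair in it. By limma voom, which called 9389 genes lower in all, the mitochondrial ribosomal protein genes were 22 higher and 22 lower and the snoRNA and scaRNA genes 0 and 1. Of 19 long neuronal genes none was higher and 10 were lower (median -0.93), and of 10 reference genes 1 and 7. Of 10 granule neuron markers 4 were lower, as were 4 of 7 for astrocytes, 4 of 7 for endothelium and 4 of 7 for mural cells. So were 3 of 6 for meningeal fibroblasts and 1 of 8 for oligodendrocytes. Of these, 1 endothelial marker was higher, and of 9 microglia markers 2 were higher and 3 lower. By limma voom 10 of 10 granule neuron and 3 of 8 oligodendrocyte markers were lower. Of 8 Purkinje markers 2 were higher and 3 lower, and without piglet 202 4 were higher and 3 lower. Without piglet 202, 210 or 213 the ribosomal protein count was 35, 32 or 36 higher, while the snoRNA and scaRNA count was 2, 10 or 3. Of the 12 mitochondrial genes 1 was higher and none lower, and without piglet 210 10 were higher. Over all genes the fits without piglet 202, 210 or 213 called 2333 of 16264, 4038 of 16422 and 2427 of 16429 higher. They called 5689, 4148 and 5614 lower.

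The genes with the smallest adjusted p in this fit differed in each library by itself. SLC25A41, a mitochondrial ATP-Mg carrier gene (chr2:72645505-72655240), was at 18.5, 75.4 and 10.1 CPM in piglets 202, 210 and 213, where the group medians were 2.09, 1.77 and 1.75 and no other library of the 3 groups passed 4.46. Its edgeR difference was 3.98 ± 0.30 log2 units, with an adjusted p of 1.33e-11. The ± value is the difference divided by the square root of the test's F and does not measure the spread of the 3 piglets. The gene's own log2 ratios in piglets 202, 210 and 213 were 3.12, 5.23 and 2.50. RPL38 (chr12:6884899-6889966) was at 1163, 1418 and 550 CPM against 291, 292 and 260, and NAT9, an acetyltransferase gene on the same chromosome (chr12:6459673-6464236), at 148, 1100 and 81.7 against 33.6, 33.4 and 33.7. PET100, a cytochrome oxidase assembly factor (chr2:71519395-71520820), was at 61.6, 106 and 44.3 CPM against 19.9, 19.7 and 18.2. Its span starts 1 base after that of PCP2 ends. MGAT2, ILKAP and METTL23 were also among the 8 leading gains, and each of the 8 was above all other libraries of its group in all 3.

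A further pair of gains was picked after their values were seen. COX4I1, a cytochrome oxidase subunit gene with processed copies elsewhere, was at 32.98 and 35.8 CPM in piglets 202 and 213 (medians 12.8 and 9.39) and at 1734 CPM in piglet 210 (median 11.5), a 151-fold difference. AMDHD2, an enzyme gene of amino sugar breakdown, was at 19.8, 479 and 18.7 CPM against 5.32, 6.35 and 5.32. Both are gains of all 3 in which piglet 210 stood furthest from its group.

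The shared losses with the smallest adjusted p had various roles. ADCYAP1R1, the receptor for the neuropeptide PACAP, was at 37.6, 30.9 and 37.5 CPM in piglets 202, 210 and 213 against medians of 179, 193 and 204, a level nearly equal in the 3. Its edgeR difference was -2.36 ± 0.15 log2 units (± computed from F as for SLC25A41), with the smallest adjusted p of all genes, 6.36e-13. CBX6, a Polycomb subunit, was at 43.1, 46.6 and 30.1 CPM against 209, 203 and 220. SV2C was at 2, 0 and 1 counts, and GLYR1, FAM234B, DDB1 and GDF11 were also among the 8 leading losses, with differences of -1.13 to -1.85 log2 units. In each library of the 3 all 8 leading losses were below every other library of the group. The 8 gains and 8 losses were picked by their p in these same libraries, so their separation is a description and no further result.

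CHEK2, a DNA damage checkpoint kinase, and TPRKB, of a tRNA-modifying complex, were at 9.18 and 49.8 CPM in piglet 202 (4.01 to 5.52 and 18.5 to 24.4 in its group), at 6.85 and 27.6 CPM in piglet 213 (2.77 to 4.10 and 14.5 to 19.8), and both at 0 in piglet 210. SLC19A3 was at 4.59, 0 and 4.19 CPM in piglets 202, 210 and 213, against group medians of 3.54, 3.12 and 2.64, and PLA2G2E had at most 1 count in each.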

How the data were processed

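Total RNA of snap-frozen cerebellum from 36 piglets, 1 library each, was extracted with a lipid tissue kit and sequenced as pairs on an Illumina NovaSeq. The deposited values are raw counts of read pairs per gene, 1 file per piglet, which the authors made from reads trimmed with Trim Galore, aligned with HISAT2 to Sscrofa11.1 and counted with HTSeq, as their processing notes name them. Versions, annotation release, strand setting and the choice between poly-A selection and ribosomal RNA depletion are not given in the sources used here. Each file lists 31907 gene identifiers and 5 closing lines, and 0 columns of other samples were present. The closing lines were kept out of library sizes and tests, and their shares chose the libraries. RefSeq tables of Sscrofa11.1 paired 15029 identifiers with a symbol and 13830 with a unique RefSeq gene. No transcript or genome sequence was used here.

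Pairs on genes ranged from 7936202 to 23027502 per library. Ratios of single libraries used log2 CPM with TMM scaling and a prior count of 2. The 3 libraries were compared with the 33 others by edgeR's quasi-likelihood test (glmQLFit, group and sex as terms, TMM, filterByExpr, Benjamini-Hochberg adjustment, threshold 0.05). A run on simulated counts gave the 3 libraries the median depth of the others and changed only a small set of genes. It did not cover a library with 7936202 pairs and most genes at 0, so it does not show how the test behaves there. R 4.3.3, edgeR 4.0.16, DESeq2 1.42.0, limma 3.58.1, Python 3.11.15, pandas 2.3.3, numpy 2.4.6 and scipy 1.17.1 were used. Each library is 1 piglet, and litter is not in the labels. The alternatives were other scalings, filters, folds, ranges, prior counts, denominators and tests, and each of the 3 libraries left out.

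The libraries, gene lists and classes were chosen with earlier results of these data known. Named genes were, per library, the 8 highest and 8 lowest called genes with a symbol and the 5 with the most counts. They further included the 8 genes per direction with the smallest adjusted p in the joint test, all mitochondrial protein genes, up to 4 members of each list and 4 genes named in the study. SLC1A2, COX4I1, MSS51, PON1, OIP5, SLC24A2, PRKCA, GRM5, PTPRT, AMDHD2 and KBTBD11 were added after their values were seen, as were single list members named beside a count of 5 or fewer. A gene without a symbol is counted but not named. Planned bins of transcript length and exon number were not run, because no table used here gives them. A few genes that these rules pick are not reported here.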

Additional observations from a re-analysis of the deposited data

Results flagged for a closer look

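Dixon's test for 1 value far from the rest of its group of 9 was run on 64 combinations of measure and group, where chance alone gives about 1 in 20. It marked 40, of which 34 were in piglets 202, 210 and 213. The unassigned share, by which the libraries were chosen, stood apart in all 3 (43.6%, 64.3% and 31.5%). The shares outside genes and not aligned are part of it, so 6 of the 34 marks are no independent result. The other 28 are on gene counts and are not independent of each other. Class shares of a library are parts of 1 total, and the marks come from the same 3 libraries.

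Piglet 202 stood apart from VEG-NBW, beside the share outside genes among uniquely placed pairs (26.2%), for genes detected (20793), genes holding 50% of the pairs (699) and Spearman's rho with the group median (0.916). It also did so for the shares of mitochondrial protein (15.6%), cytosolic ribosomal protein (4.44%), snoRNA and scaRNA (0.00469%), RefSeq protein-coding (68.6%) and RefSeq lncRNA genes (0.227%), of genes with a symbol and no RefSeq match (3.55%) and of genes without a symbol (11.95%).

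Piglet 210 stood apart from VEG-IUGR, beside the share outside genes among uniquely placed pairs (25.8%) and pairs not aligned (24.6%), for genes detected (6513), genes holding 50% of the pairs (224) and rho (0.476). Its shares of mitochondrial protein (0.841%), cytosolic ribosomal protein (7.98%), mitochondrial ribosomal protein (0.933%), nuclear respiratory chain (1.73%), histone (0.0300%), snoRNA and scaRNA (0.00580%) and RefSeq lncRNA genes (0.385%) and of genes without a symbol (14.2%) were apart as well.

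Piglet 213 stood apart from MILK-NBW for rho (0.949) and the shares of mitochondrial protein (8.65%), cytosolic ribosomal protein (2.99%), mitochondrial ribosomal protein (0.288%), snoRNA and scaRNA (0.00324%) and RefSeq protein-coding genes (76.7%) and of genes without a symbol (10.2%).

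The other 6 marks were all on 1 library below the threshold, piglet 207 of MILK-IUGR, with 27.4% of pairs unassigned. It had 785 genes holding 50% of the pairs, rho 0.982, and shares of 10.3% for mitochondrial protein, 2.77% for cytosolic ribosomal protein, 0.997% for nuclear respiratory chain and 75.8% for RefSeq protein-coding genes. Its log2 ratios correlated over genes with those of piglet 213 with r 0.20 and of piglet 202 with r 0.07.

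Outside the comparisons, piglet 202, a female, had counts on Y chromosome genes: KDM5D at 0.424 CPM and EIF1AY at 1.34 CPM. The 16 other females below the threshold had at most 0.0537 and 0.291 CPM and the 17 males below it 4.99 to 14.3 and 36.9 to 54.2 CPM. Piglet 210, also female, had 0 on both, and piglet 213, a male, had 20.7 and 49.2 CPM.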

How the results depend on the processing

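The edgeR comparison of the 3 libraries with the 33 called 6501 genes. Scaling, filter and covariate alternatives gave 6021 to 7014 genes, the DESeq2 Wald test 8045 and the 3 groups alone 5162, all within 1.5 times, while limma voom gave 11242 (1853 higher, 9389 lower). Leaving out 1 of the 3 libraries gave 8022 to 8186 genes. All 176 values of the 16 genes named from this test kept their direction and call. A 4-fold rule left 1109 genes in piglet 202 (404 lower, 705 higher) and 508 in piglet 213 (393 and 115). Without a filter on low counts the 2-fold rule gave 6988 (2557 and 4431) and 3534 (1713 and 1821). As reported they were 4444 (2335 and 2109) and 2165 (1381 and 784), so the balance turned in piglet 202 under both and in piglet 213 without the filter. For named genes in single libraries, 2000 of 2121 values kept their call, 121 lost it and 0 reversed.

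Class shares were recomputed over all pairs of the file and over pairs on nuclear genes, each as a ratio to the group median. The mitochondrial ratio of piglet 202 was 2.39, and became 1.87 and 2.64. The cytosolic ribosomal protein ratio was 1.91 in piglet 202 (1.51 and 2.12), 3.44 in piglet 210 (1.71 and 3.24) and 1.37 in piglet 213 (1.31 over all pairs). Over all pairs these ratios changed side of 1: respiratory chain genes in piglets 202 (0.860) and 210 (0.972), RefSeq protein-coding genes in piglet 210 (0.503), RefSeq lncRNA genes in piglets 210 (0.728) and 213 (0.983), genes with a symbol and no RefSeq match in piglets 210 (0.526) and 213 (0.971), and genes without a symbol in piglets 202 (0.985) and 210 (0.734). Over nuclear genes, RefSeq protein-coding genes (0.952) and genes with a symbol and no RefSeq match (0.992) did so in piglet 210. The shift over all pairs follows from construction, since these libraries have more pairs off genes.

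The ratio of genes detected to the group median was 1.08 in piglet 202 (1.04 with at least 10 counts, 1.10 thinned), 0.340 in piglet 210 (0.396 and 0.364) and 1.02 in piglet 213 (0.997 with at least 10 counts). No paired analysis was possible because replicate numbers follow accession order and mark no litter. Depth limits piglet 210 most: with 7936202 pairs on genes, a count of 0 allows up to 0.378 CPM. Intervals and floors cover counting error only.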
